A study of Homo sapiens with 9 samples.

Results

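The 8 genes described here encode intermediate filament proteins, the ropelike polymers of the cytoskeleton: NEFL, NEFM, NEFH, INA, PRPH, VIM, NES and SYNM. They were taken by gene symbol from a table of 25084 genes, and all 8 were found. The cells were LAN5, an established human neuroblastoma line with amplified MYCN, grown in RPMI-1640 with serum. They had received small interfering RNA (siRNA) by nucleofection, a form of electroporation, and RNA was collected 72 h later. There were 3 groups of 3 libraries: siCTR, given a control siRNA, siMYCN, in which MYCN was targeted, and siHAND2, in which HAND2 was targeted. The labels name 1 siRNA for each target (siMYCN_2 and siHAND2_3), so an effect of lowering the target and any other effect of that siRNA cannot be told apart. No label says whether the 3 libraries of a group came from separate cultures, so p-values measure the spread between these libraries, which may be technical. The study was set up to find genes that HAND2 and MYCN regulate in these cells. Both are transcription factors of the helix-loop-helix kind.

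Intermediate filament proteins pair through a central rod and assemble end to end into filaments, and each cell type builds them from its own mixture. Neurofilaments, which set axon calibre, are made of the light (NEFL), medium (NEFM) and heavy (NEFH) chains together with alpha-internexin (INA) in central neurons or peripherin (PRPH) in peripheral neurons. Sympathetic neuroblasts, the lineage of neuroblastoma, also make vimentin (VIM), the main filament of mesenchymal and immature cells. Nestin (NES), a marker of neural progenitors, and synemin (SYNM), which ties filaments to other structures, assemble with vimentin.

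The values are CPM, read counts scaled to the library total, and the library depth estimated from their smallest steps was 21.0 to 32.7 M reads. For a gene at 20 CPM, the counting of reads adds a relative SD of 3.91% to 4.88%, and every member lay above 20 CPM in all 9 libraries. In siMYCN, MYCN was at 70.0% and in siHAND2 at 49.6% of its siCTR mean, while HAND2 was at 114% and 54.2%. MYCN transcript was lower in siHAND2 than in siMYCN (log2 difference -0.50, limma adjusted p = 6.21e-07). All 8 markers listed for sympathetic neuroblasts measured at least 1 CPM in each group. Their summed level ran from 2233 to 2369 CPM in siCTR, while siMYCN had 2817 to 2899 and siHAND2 2398 to 2521. Of the 8, 6 were called higher and 0 lower in siMYCN, where 24.5% and 11.4% of all tested genes were. In siHAND2, 2 were higher and 2 lower, where 18.1% and 11.8% of all genes were. Their median log2 changes were 0.34 in siMYCN and -0.03 in siHAND2, against 0.06 and 0.04 over all tested genes. ELAVL4, a neuronal RNA-binding protein, made up the largest part of the sum (group means of 975, 1110 and 1008 CPM). In siHAND2 the noradrenaline enzyme DBH stood at 130.1 CPM against 263 in siCTR, and STMN2, a neuronal microtubule regulator, at 343 against 177. None of the 6 Schwann cell or glial, 4 endothelial and 3 leukocyte markers found in the table reached a group mean of 1 CPM. In bulk RNA, fewer cells of a type and less RNA per cell cannot be told apart.

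The stretches before the annotated starts of VIM, INA and PRPH are shown because these 3 genes differed in how they changed. VIM rose in both knockdowns, INA was called higher in siMYCN and not called in siHAND2, and PRPH went up in siMYCN and down in siHAND2. Each is the 250 bases upstream of the RefSeq start (GRCh38.p14), written 5′ to 3′ on the gene's strand, which is the plus strand for the 3 genes. Capitals mark E-boxes (CANNTG), the hexamers that helix-loop-helix factors are known to bind.
VIM chr10:17227991-17228240: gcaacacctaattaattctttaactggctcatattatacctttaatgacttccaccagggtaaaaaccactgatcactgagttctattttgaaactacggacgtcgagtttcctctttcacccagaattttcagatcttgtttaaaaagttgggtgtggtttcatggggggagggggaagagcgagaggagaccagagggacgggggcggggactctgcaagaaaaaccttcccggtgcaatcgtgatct
INA chr10:103276888-103277137: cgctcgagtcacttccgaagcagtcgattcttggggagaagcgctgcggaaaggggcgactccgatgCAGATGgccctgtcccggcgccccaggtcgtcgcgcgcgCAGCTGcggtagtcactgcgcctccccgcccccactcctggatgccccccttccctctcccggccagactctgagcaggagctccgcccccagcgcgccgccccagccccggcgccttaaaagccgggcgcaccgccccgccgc
PRPH chr12:49294897-49295146: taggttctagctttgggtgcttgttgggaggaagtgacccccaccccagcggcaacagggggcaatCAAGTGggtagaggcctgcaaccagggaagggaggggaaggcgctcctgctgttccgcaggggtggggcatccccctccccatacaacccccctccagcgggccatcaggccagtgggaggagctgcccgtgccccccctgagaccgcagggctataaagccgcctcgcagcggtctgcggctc

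Promoter sequences were used for 5 of the 8 members (INA, PRPH, VIM, NES and SYNM). NEFL and NEFM, both on chromosome 8, were left out of this search, and no sequence was matched for NEFH. Motifs were searched on both strands, and CANNTG includes the other 2 motifs. An E-box CANNTG stood in 3 of these 5 stretches: INA held 2, PRPH 1 and SYNM 1, and VIM and NES none. Of all 35116 RefSeq promoters of this length, 61.8% held one. The form CACGTG, preferred by MYC proteins, was in none of the 5 stretches and in 6.35% of all promoters. The form CATCTG, which HAND proteins are known to bind, was in 1, INA, where it is read as CAGATG on the plus strand and begins 183 bases before the start. It was in 12.2% of all promoters. G and C made up 46.0% of the VIM stretch, 72.8% of INA and 66.8% of PRPH, against a median of 58.0% over all promoters. A match is only a match of letters, and the start site used in these cells was not measured. For PRPH the start in the deposited table lies 1895 bases from the RefSeq start, and for SYNM 6863 bases.

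Levels of different genes are compared per kilobase of transcript (length of the MANE Select transcript, GENCODE). In siCTR, VIM had the highest level, 244 ± 11.8 CPM per kb, followed by NES with 62.1 ± 4.78, INA with 40.0 ± 0.76 and NEFL with 35.7 ± 0.84 (SD, n = 3 libraries each, as throughout). NEFH (22.7 ± 1.15 CPM per kb) and PRPH (21.0 ± 0.51) came next, and the lowest NEFH library (21.5) was barely above the highest PRPH library (21.3). NEFM (7.47 ± 0.46 CPM per kb) and SYNM (4.26 ± 0.22) were lowest. The control cells thus held all 3 neurofilament chain transcripts, with the medium chain far below the light and heavy ones. In siMYCN the order was the same except that PRPH (31.0 ± 2.10 CPM per kb) lay above NEFH (20.2 ± 1.67), and the libraries of INA and NEFL overlapped. In siHAND2 NEFL was second with 66.0 ± 3.75 CPM per kb, and its libraries overlapped with those of NES (60.5 ± 6.28). NEFM (20.4 ± 4.87) overlapped there with NEFH (18.8 ± 0.83) and PRPH (17.3 ± 1.05). The SYNM level per kb is uncertain, since its span in the table (chromosome 15, 99098217 to 99135593) ends before the RefSeq span (99105080 to 99141767). That of PRPH is uncertain too, since its start in the table lies 1895 bases from the RefSeq start.

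**Figure D1:**
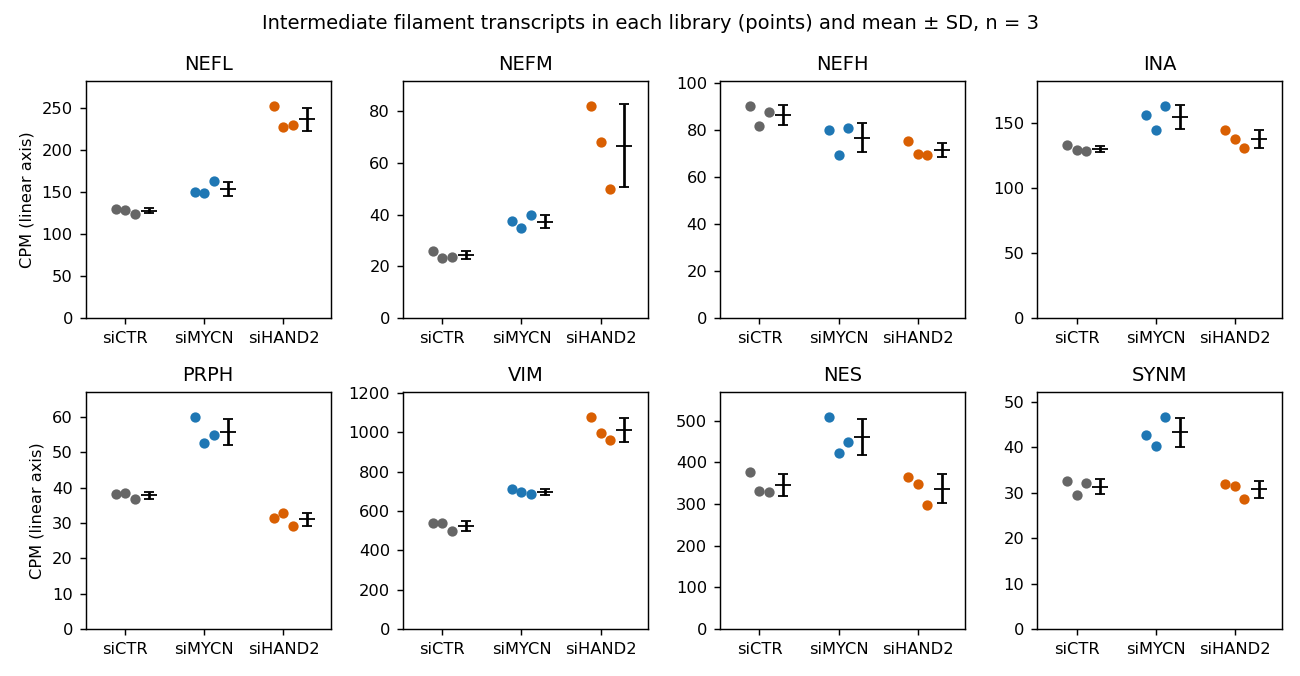
CPM of each of the 8 genes (vertical axes, linear, from 0) in each library of siCTR, siMYCN and siHAND2 (points), with the mean ± SD of 3 libraries beside them. NEFL, NEFM and VIM step up from siCTR to siMYCN to siHAND2, while PRPH is highest in siMYCN and lowest in siHAND2.

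Changes were tested on log2(CPM + 1) with limma over 14495 genes, and an adjusted p (Benjamini-Hochberg) under 0.05 was called. In siMYCN against siCTR, 8 of 8 members were called, 7 higher and 1 lower, where 35.9% of all tested genes were called (24.5% higher, 11.4% lower). In siHAND2 against siCTR, 5 of 8 were called, 3 higher and 2 lower, where 29.9% of all genes were called (18.1% higher, 11.8% lower). In siHAND2 against siMYCN, 7 of 8 were called, 3 higher and 4 lower in siHAND2, where 26.9% were called (11.4% higher, 15.5% lower). The median log2 change of the members was 0.41 in siMYCN, against 0.06 over all tested genes, and 0.03 in siHAND2, against 0.04. In siHAND2 against siMYCN it was -0.13, against -0.006. The libraries of the 2 groups did not overlap for 8 members in siMYCN against siCTR (49.5% of all tested genes), 5 in siHAND2 against siCTR (42.4%) and 7 in siHAND2 against siMYCN (38.7%). The members were thus mostly higher in siMYCN and went in different directions in siHAND2. Both comparisons use the same siCTR libraries, so they are not independent of each other. With CPM as deposited, 68.3% of all called genes were higher in siMYCN and 60.6% in siHAND2. After median-ratio rescaling these shares were 51.2% and 47.1%, and after quantile normalization 49.3% and 47.8%. Each member call in these 2 comparisons held its direction and its side of the threshold under both rescalings.

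**Figure D2:**
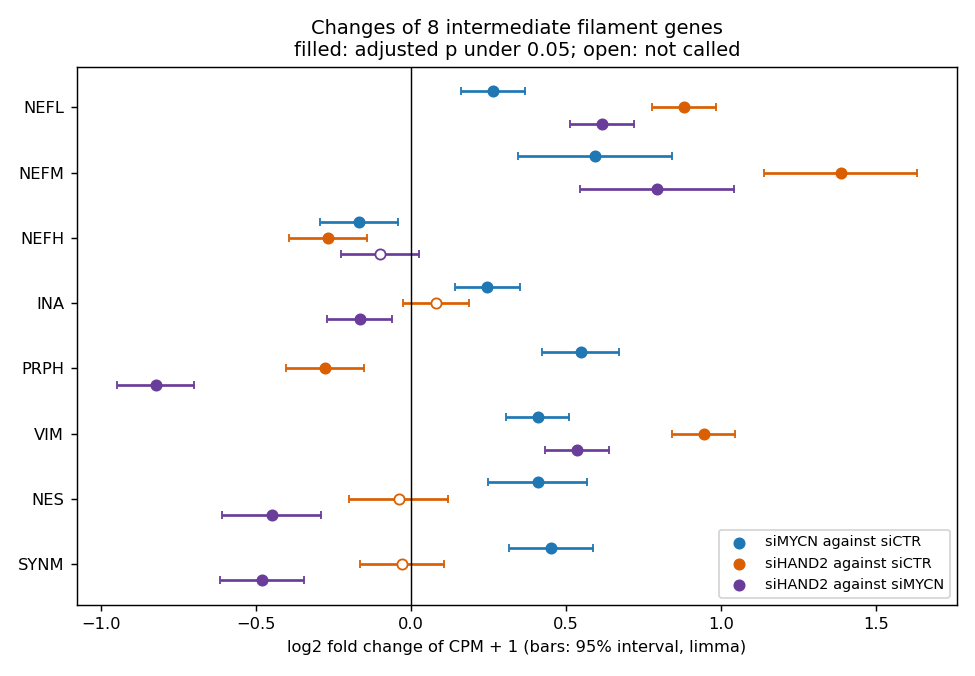
Log2 fold change of CPM + 1 (horizontal axis) for each gene in the 3 comparisons, with 95% intervals from limma; filled points are called and open points are not. NEFM has the largest rise (1.39 in siHAND2), and PRPH lies at 0.55 in siMYCN and -0.28 in siHAND2.

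NEFL, NEFM and VIM were higher in both knockdowns, and more so in siHAND2. NEFL, the light chain on which neurofilament assembly depends, lies on chromosome 8 (24950955 to 24956721, GRCh38, minus strand). Its CPM values were 130.4, 129 and 125 with the control siRNA, 149.8, 149 and 163 after siMYCN, and 252, 228 and 229.7 after siHAND2. The 3 groups did not overlap. Its log2 change was 0.26 in siMYCN (standard error 0.05, limma adjusted p = 0.000524) and 0.88 in siHAND2 (standard error 0.05, adjusted p = 1.15e-09). The siHAND2 mean was 185% of the siCTR mean, and the direct difference of siHAND2 from siMYCN was 0.62 (limma adjusted p = 5.87e-08).

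NEFM, the medium chain, lies on the same chromosome (24913758 to 24919098, plus strand), next to NEFL. The control libraries held 26.2, 23.4 and 23.7 CPM, the siMYCN libraries 37.4, 34.9 and 39.8, and the siHAND2 libraries 81.9, 68.2 and 50.1. Every siHAND2 library exceeded every siMYCN library, and those exceeded every siCTR library, but the siHAND2 libraries were far apart (coefficient of variation 23.9%). The log2 change was 0.59 in siMYCN (standard error 0.12, limma adjusted p = 0.000913) and 1.39 in siHAND2 (standard error 0.12, adjusted p = 1.65e-07). By size of rise in siHAND2, NEFM ranked 51 of the 14495 genes, and its mean reached 273% of that in siCTR. Without siHAND2 replicate 3 the change was 1.58, and the call held. The direct difference between the knockdowns was 0.79 (limma adjusted p = 7.52e-05).

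VIM (chromosome 10, 17228241 to 17237593, plus strand) was the most abundant member throughout. The siCTR libraries gave 541, 538 and 495 CPM, the siMYCN libraries 710.5, 694 and 684 and the siHAND2 libraries 1077, 998 and 959. No 2 groups overlapped. VIM rose by 0.41 on the log2 scale in siMYCN (standard error 0.05, limma adjusted p = 8.60e-06) and by 0.94 in siHAND2 (standard error 0.05, adjusted p = 4.76e-10). Its siHAND2 mean was 193% of the control, and the direct difference from siMYCN was 0.54 (limma adjusted p = 3.11e-07). Fibroblasts also make vimentin. Of 6 fibroblast or stromal markers, 5 were found, and their summed level ran from 156 to 161 CPM in siCTR, while siMYCN had 177 to 187 and siHAND2 232 to 274. Of the 4 expressed enough to be tested, 3 were called higher and 0 lower in siMYCN, where 24.5% and 11.4% of all genes were. In siHAND2, 3 were higher and 1 lower, where 18.1% and 11.8% of all genes were. Their median log2 changes were 0.46 in siMYCN and 0.99 in siHAND2, against 0.06 and 0.04 over all tested genes. In siCTR, siMYCN and siHAND2, the group means were 89.8, 98.8 and 179 CPM for PDGFRB, 0.431, 1.30 and 11.02 for DCN, 1.42, 4.19 and 3.84 for COL3A1, and 65.4, 77.7 and 56.8 for THY1. COL1A1, which was not tested, lay below 1 CPM in the 3 groups (0.72, 0.507 and 0.363). DCN, below 1 CPM in the siCTR mean, could pass the filter of 1 CPM in 3 libraries only with knockdown libraries. The counts called and the medians of these markers thus depend in part on the filter. The part of these markers in the VIM result was not tested.

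INA, NES and SYNM were higher in siMYCN and not called in siHAND2. INA (chromosome 10, 103277138 to 103290346, plus strand) measured 133, 129 and 128 CPM in the control, against 156, 145 and 163 in siMYCN, and 145, 138 and 130.5 in siHAND2. The siMYCN libraries lay above all siCTR libraries, and the siHAND2 libraries overlapped with them. INA rose by 0.25 on the log2 scale in siMYCN (limma adjusted p = 0.00112), and its change in siHAND2 was 0.08 (95% interval -0.02 to 0.19, adjusted p = 0.241). The direct difference, -0.16 (limma adjusted p = 0.0207), was near the threshold. That call was lost with no intensity trend (adjusted p = 0.0712) and without siMYCN replicate 1 or 3 or siHAND2 replicate 2 or 3, where the value ran from -0.17 to -0.13.

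NES (chromosome 1, 156668763 to 156677407, minus strand) measured 377, 332 and 329 CPM in the control, against 508, 423 and 448 in siMYCN, and 365, 348 and 298 in siHAND2. All siMYCN libraries lay above all others. NES rose by 0.41 on the log2 scale in siMYCN (standard error 0.08, limma adjusted p = 0.000518), with a mean 133% of the control. In siHAND2 it differed from siCTR by -0.04 (95% interval -0.20 to 0.12, limma adjusted p = 0.725). The difference between the knockdowns was -0.45 (limma adjusted p = 0.00026).

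SYNM gave 32.5, 29.5 and 32.1 CPM in control cells, then 42.9, 40.4 and 46.7 in siMYCN, and 31.99, 31.6 and 28.6 in siHAND2. As with NES, the siMYCN libraries stood above the other 6. SYNM rose by 0.45 in siMYCN (standard error 0.06, limma adjusted p = 4.98e-05). In siHAND2 its change was -0.03 (95% interval -0.16 to 0.11, limma adjusted p = 0.777), and the direct difference was -0.48 (adjusted p = 2.78e-05). For NES and SYNM the intervals in siHAND2 end below the rises measured in siMYCN.

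PRPH, peripherin, a filament of peripheral and sympathetic neurons, was the member that went in opposite directions. It lies on chromosome 12 (49293252 to 49298686, plus strand). The control libraries measured 38.3, 38.4 and 36.8 CPM, those of siMYCN 60.0, 52.7 and 54.8, and those of siHAND2 31.4, 32.8 and 29.1. The siMYCN libraries all lay above and the siHAND2 libraries all below siCTR. The log2 change was 0.55 in siMYCN (standard error 0.06, limma adjusted p = 3.33e-06) and -0.28 in siHAND2 (standard error 0.06, adjusted p = 0.00208). The knockdowns differed by -0.82 (limma adjusted p = 1.73e-08). These 2 changes and the difference kept their direction and call under all 18 alternative settings run for each.

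NEFH, the heavy chain with the long phosphorylated tail, was the only member called lower in both knockdowns. It lies on chromosome 22 (29480218 to 29491390, plus strand). Control libraries held 90.0, 81.5 and 87.5 CPM of NEFH, siMYCN libraries 79.9, 69.5 and 80.9, and siHAND2 libraries 75.1, 69.9 and 69.5. Both knockdowns lay below the lowest siCTR library, in siMYCN by a narrow margin (80.9 against 81.5 CPM), and they overlapped each other. In siHAND2 NEFH fell by 0.27 (standard error 0.06, limma adjusted p = 0.00278), with a mean 82.8% of the control. In siMYCN its change was -0.17 (limma adjusted p = 0.0358), a call that was lost in 5 of 18 alternatives. These were no filter on low values (adjusted p = 0.0601), no intensity trend (adjusted p = 0.0926), and leaving out siCTR replicate 1 (-0.14) or 3 (-0.16) or siMYCN replicate 2 (-0.10). The knockdowns differed by -0.10 (95% interval -0.22 to 0.03, limma adjusted p = 0.24), which was called without siMYCN replicate 2 (-0.17).

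The 3 neurofilament chains therefore did not change by the same amount, as their ratios within each library show. The log2 ratio of NEFH to NEFM (each CPM + 1) was 1.74, 1.76 and 1.84 in the control libraries, 1.07, 0.97 and 1.006 in those of siMYCN, and -0.12, 0.03 and 0.46 in those of siHAND2. On this CPM scale, not divided by transcript length, the heavy chain exceeded the medium chain clearly in control cells and less in siMYCN. In siHAND2 the libraries differed, from -0.12 in replicate 1 to 0.46 in replicate 3. Per kb of transcript, NEFM lay above NEFH in siHAND2 replicates 1 and 2 and below it in replicate 3. The order of these 2 chains in siHAND2 was thus mixed. The NEFL to NEFM ratio was 2.34 ± 0.07 in siCTR, 2.01 ± 0.05 in siMYCN and 1.84 ± 0.30 in siHAND2. Peripherin against NEFM was 0.61 ± 0.08 and 0.57 ± 0.11 in siCTR and siMYCN, where the libraries overlapped, and -1.05 ± 0.29 in siHAND2. INA against NEFM went from 2.37 ± 0.06 to 2.02 ± 0.01 and 1.06 ± 0.28. These ratios are descriptions with no test.

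**Figure D3:**
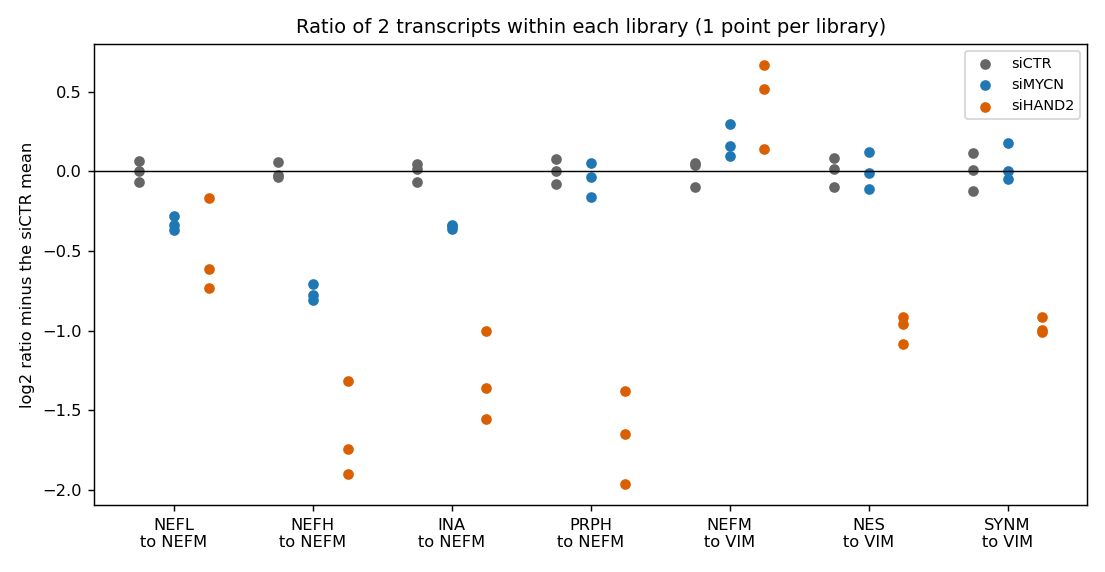
Log2 ratio of 2 transcripts within each library, minus the siCTR mean of that ratio (vertical axis), 1 point per library. PRPH to NEFM, NES to VIM and SYNM to VIM are near 0 in siMYCN, and their siHAND2 means are -1.66, -0.98 and -0.97.

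The partners of vimentin showed a like separation. NES to VIM was -0.60 ± 0.09 in siCTR, -0.60 ± 0.12 in siMYCN and -1.59 ± 0.09 in siHAND2. SYNM to VIM was -4.02 ± 0.12, -3.98 ± 0.12 and -4.99 ± 0.05. In siMYCN the 3 transcripts therefore kept their proportions within the spread of the libraries, whereas in siHAND2 VIM rose and the other 2 were not called. NEFM to VIM was -4.37 ± 0.08 in siCTR, -4.19 ± 0.10 in siMYCN and -3.93 ± 0.27 in siHAND2.

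Summed over the 8 genes, the control libraries held 1309 ± 55.4 CPM, the siMYCN libraries 1678 ± 68.0 and the siHAND2 libraries 1922 ± 133. The 5 neuronal genes (NEFL, NEFM, NEFH, INA and PRPH) gave 406 ± 9.69, 478 ± 25.6 and 544 ± 38.7 CPM of these. Their share of the sum was 31.1 ± 0.69% in siCTR, 28.5 ± 1.15% in siMYCN and 28.3 ± 0.20% in siHAND2. VIM alone held 40.1 ± 1.11%, 41.5 ± 1.41% and 52.6 ± 0.72% of the sum. Within the neuronal 5, NEFL and NEFM together made up 37.5 ± 0.44%, 40.0 ± 1.10% and 55.8 ± 1.15%, and PRPH 9.31 ± 0.22%, 11.7 ± 0.74% and 5.73 ± 0.37%. Every library of both knockdowns had a higher total than every control library, and these sums and shares were not tested. One library often lay at the end of its group: siCTR replicate 1 was the highest of its group for 7 of the 8 genes, siMYCN replicate 2 the lowest for 7, siHAND2 replicate 1 the highest for 7 and siHAND2 replicate 3 the lowest for 7. Without siHAND2 replicate 3, 5 members were still called against siCTR.

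**Figure D4:**
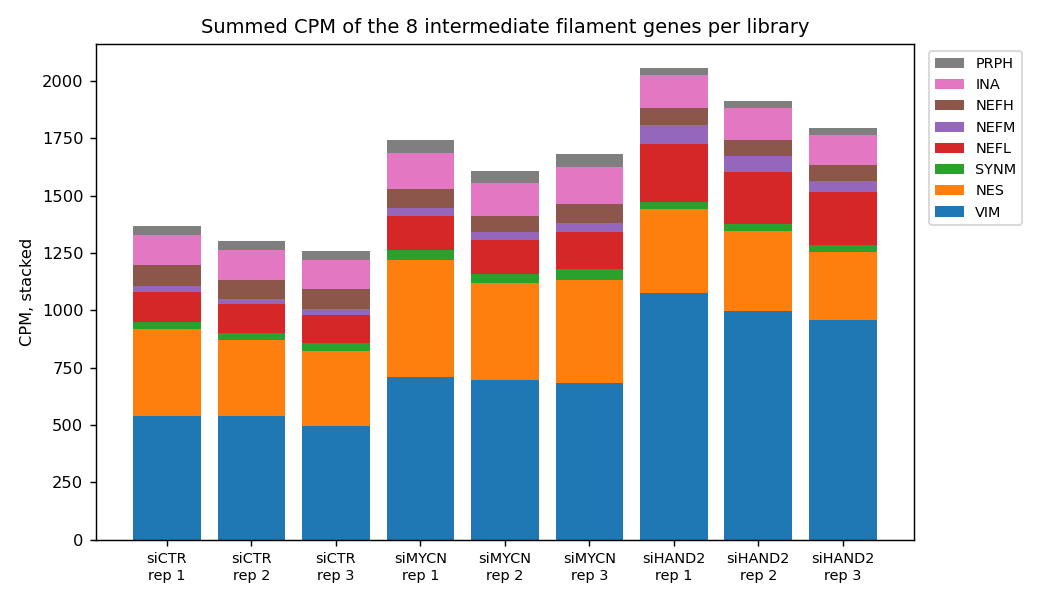
CPM of the 8 genes stacked for each of the 9 libraries (vertical axis from 0). The sum runs from 1257 to 1367 in siCTR, 1609 to 1745 in siMYCN and 1794 to 2059 in siHAND2, and VIM is the largest part in every library.

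The proteins that link filaments to other structures or carry them along axons were given by a list of 12 genes, all tested. Of these, 10 were called higher and 0 lower in siMYCN, where 24.5% of all tested genes were higher and 11.4% lower (median log2 change 0.29, against 0.06 over all tested genes). In siHAND2, 4 were higher and 2 lower, where 18.1% and 11.8% of all genes were (median 0.10, against 0.04). In the direct comparison 10 were lower in siHAND2 than in siMYCN, where 15.5% of all genes were lower, or 6 without siMYCN replicate 3 or with no intensity trend. KIF5A, the neuronal kinesin heavy chain known to carry neurofilaments, went from 52.5 CPM in siCTR to 85.4 in siMYCN and 63.4 in siHAND2. It rose by 0.69 (limma adjusted p = 2.16e-08) and 0.27 (adjusted p = 0.000221). The kinesin light chain KLC1 rose by 0.51 in siMYCN and 0.22 in siHAND2 (limma adjusted p = 3.36e-07 and 0.00134). MYO5A, a myosin that binds the light neurofilament chain, rose by 0.42 and 0.22 (limma adjusted p = 6.97e-05 and 0.0121). Its call in siHAND2 was lost without siCTR replicate 2 (0.18) or siHAND2 replicate 2 (0.20). Another neuronal kinesin, KIF5C, rose by 0.29 in siMYCN (limma adjusted p = 5.27e-05) and fell by 0.33 in siHAND2 (adjusted p = 1.82e-05), as PRPH did.

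**Figure D5:**
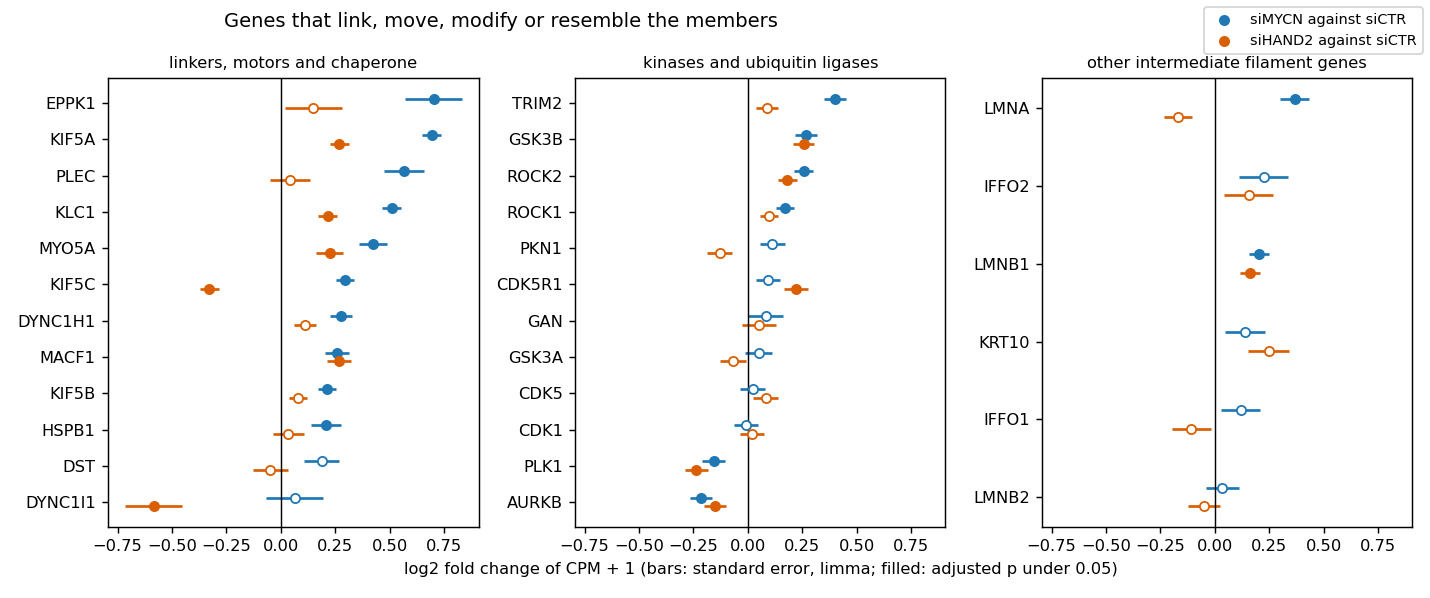
Log2 fold change of CPM + 1 (horizontal axes) with standard errors for the genes of the 3 lists that were tested, in siMYCN and siHAND2 against siCTR; filled points are called. In the list of linkers, motors and chaperone 10 of 12 genes are called higher in siMYCN and 4 in siHAND2.

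Of 12 kinases and ubiquitin ligases that act on filament proteins, 4 were called higher and 2 lower in siMYCN (median 0.09, against 0.06 over all genes) and 3 higher and 2 lower in siHAND2 (median 0.07, against 0.04). The shares called over all genes were 35.9% and 29.9%, so these counts are not far from the background. GSK3B, which phosphorylates neurofilament tails, rose by 0.27 and 0.26 (limma adjusted p = 0.000544 and 0.000996), and ROCK2, a vimentin kinase, by 0.26 and 0.18 (adjusted p = 0.000299 and 0.00551). TRIM2, a ubiquitin ligase of the light neurofilament chain, rose by 0.40 in siMYCN (limma adjusted p = 1.61e-05) and changed by 0.09 in siHAND2 (adjusted p = 0.197). The mitotic kinase PLK1 fell by 0.24 in siHAND2 (limma adjusted p = 0.00298). In siMYCN its change was -0.16 (limma adjusted p = 0.0288), and that call was lost in 5 of 18 alternatives, among them the fits without siCTR replicate 1 or 2 or siMYCN replicate 2 or 3 (-0.15 to -0.13).

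Of 13 other intermediate filament genes listed, 12 were found, and 6 were expressed enough to be tested. The keratins (KRT) listed were taken from the symbols of the deposited table, so keratins absent there were not counted. GFAP, the filament of astrocytes, KRT8 and KRT19 of epithelia, KRT222 and the lens genes BFSP1 and BFSP2 stayed at or below 0.236 CPM in every library. In siMYCN 2 of the 6 were called higher (median 0.17) and in siHAND2 1 (median 0.05), near the shares of all genes called higher (24.5% and 18.1%). The count called in either direction in siHAND2 ran from 0 to 3 over the 18 alternatives and was 3 with the replicate block (2 higher, 1 lower). The nuclear lamin LMNA measured 28.3, 36.7 and 25.04 CPM in the 3 group means. It rose by 0.37 in siMYCN (limma adjusted p = 0.00039), and its change in siHAND2 was -0.17 (adjusted p = 0.0599), which was called in 5 of 18 alternatives, both rescalings among them (-0.21 and -0.20), and the others with the replicate block (limma adjusted p = 0.0269) and without siCTR replicate 3 (-0.22) or siHAND2 replicate 2 (-0.21). The direct difference was -0.54 (limma adjusted p = 9.89e-06). LMNB1 rose by 0.20 and 0.16 (limma adjusted p = 0.00255 and 0.0137), but the call in siHAND2 was lost after median-ratio rescaling (0.12), with no intensity trend and without siCTR replicate 2 (0.15), siCTR replicate 3 (0.14) or siHAND2 replicate 1 (0.13). KRT10 (0.14 and 0.25) and IFFO2 (0.23 and 0.16) were not called in either knockdown, although KRT10 was called in siHAND2 in 6 alternatives, 1 of them the replicate block (limma adjusted p = 0.046) and 3 of them without siCTR replicate 3 (0.29) or siMYCN replicate 1 or 3, and IFFO2 in siMYCN with no intensity trend.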

How the data were processed

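Total RNA of 9 LAN5 libraries was sequenced. Per the submitters' processing notes, STAR 2.5.1 and Partek were used. The authors deposited 1 table of CPM, which holds a constant of 0.0001 in every value. The counting rule, its use of strand and the annotation are not given in the sources used here. Those notes name hg19 and GRCh37, but 8209 of 18215 gene starts equal RefSeq GRCh38.p14 starts and 150 of 18635 equal GRCh37 starts, so positions are given as GRCh38. All value columns were matched to samples by name. Low CPM values fell on steps, from which depth was read. Since 81.4% to 84.0% of values up to 20 steps were whole within 0.02, and 95% would be needed, no count model was run.

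Genes reaching 1 CPM in 3 or more libraries were kept, and log2(CPM + 1) of all 9 libraries was fitted with limma 3.58.1 in R 4.3.3 (intensity trend, 3 group means, two-sided). A fold change on this scale understates the change of low genes. P-values were Benjamini-Hochberg adjusted over all tested genes of a comparison. The fit was tested on simulated data with known changes. The labels do not say what a replicate number shares. Deviations of same-numbered libraries correlated at 0.10 to 0.22 between siCTR and siMYCN, where different numbers reached 0.04. Between siCTR and siHAND2 same numbers gave 0.12 to 0.27, but siCTR replicate 2 with siHAND2 replicate 1 gave 0.18. These correlations are low, and whether equal numbers pair the libraries cannot be told from them. Between siMYCN and siHAND2 the 3 pairs gave 0.43, -0.13 and 0.24, and different numbers gave -0.44 to 0.22 over all groups. The fit reported has no replicate block, and a blocked value is given where it changed a call. The members and lists were chosen with earlier results of these data known. The 8 members are always named. From each of the 3 lists the 4 genes with the smallest p in either comparison with siCTR are named, and for members that changed by at least 0.5 the 2 genes with the nearest profile, of which 1 is not reported here. Markers, DOCK5, the overlapping genes and the promoters printed were chosen after their values were seen. Alternatives were other pseudocounts, filters, scalings and fits, a replicate block, and each library left out.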

Additional observations from a re-analysis of the deposited data

How the results depend on the processing

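Of 24 member results (8 genes in 3 comparisons), 19 kept their direction and side of the threshold in all 18 alternatives. The number of members called stayed at 5 in siHAND2 against siCTR, at 7 or 8 in siMYCN against siCTR and at 6 to 8 in siHAND2 against siMYCN. Calls moved for NEFH and INA, as given with their values. The sign turned only for values that were never called. NES in siHAND2 (-0.04) ran from -0.10 to 0.046 when 1 library was left out, and turned without siCTR replicate 1 (0.02) or siHAND2 replicate 3 (0.046). SYNM in siHAND2 (-0.03) ran from -0.070 to 0.020 and turned without siHAND2 replicate 3 (0.020). GSK3B between the knockdowns (-0.01) was 0.0041 after median-ratio rescaling, and ran from -0.061 to 0.026 with 1 library left out, turning without siMYCN replicate 3 (0.026) or siHAND2 replicate 3 (0.0012). A pseudocount of 5 moved 3 ratios of siMYCN minus siCTR by more than the replicate SD: NEFL to NEFM from -0.33 to -0.27, NEFH to NEFM from -0.76 to -0.69 and INA to NEFM from -0.35 to -0.29. With the replicate block 8, 5 and 7 members were called in the 3 comparisons, as without it, and 5895, 5089 and 4689 genes in all against 5209, 4339 and 3892. Among members and named list genes, the block changed only the calls of LMNA and KRT10 in siHAND2. Of the list counts it moved by over 1.5 times only that of other intermediate filament genes (3 against 1 in siHAND2, and 2 against 1 between the knockdowns). The cause of these shifts was not tested.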

Other observations

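Genes with the nearest profile to the members that changed by at least 0.5 were sought among the 11193 genes whose mean reached 5 CPM, by the root mean square difference over the 9 libraries of log2(CPM + 1) centred on siCTR. NEFL lay nearest to MTUS1 (0.08) and NYNRIN (0.08), and VIM to RGS2 (0.06), a regulator of G protein signalling, and MYLK (0.09), myosin light chain kinase. RGS2 went from 16.3 CPM in siCTR to 22.2 in siMYCN and 32.4 in siHAND2. FAM219A lay near PRPH (0.05), with 46.9, 65.8 and 38.7 CPM in the 3 groups. For NEFM, DKK2 (0.18), a secreted Wnt modulator, and SCG2 (0.20), a granin of secretory vesicles, came nearest. The distance of NEFM itself from a flat profile was 0.89, against 0.53 for NEFL, 0.36 for PRPH and 0.60 for VIM. SCG2 went from 160 to 233 and 489 CPM.

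NEFL and NEFM are neighbours, and DOCK5 is another tested gene within 500000 bases of both. DOCK5 rose by 0.68 in siMYCN and by 0.39 in siHAND2 (limma adjusted p = 1.87e-07 and 5.35e-05), where the changes of NEFL were 0.26 and 0.88. The differences between the 2 genes were not tested. Of the genes tested within 500000 bases, 4 of 6 around NEFL, 3 of 4 around NEFM, 4 of 16 around NEFH, 4 of 12 around INA, 11 of 23 around PRPH, 0 of 6 around VIM, 9 of 25 around NES and 3 of 5 around SYNM were called higher in siMYCN, where 24.5% of all genes were. In siHAND2, where 18.1% of all genes were higher, these counts were 2, 2, 2, 1, 6, 1, 6 and 2. Called lower in siMYCN, in the same order, were 1, 1, 1, 3, 1, 1, 2 and 0, where 11.4% of all genes were. In siHAND2, where 11.8% of all genes were lower, the lower counts were 0, 0, 0, 2, 3, 1, 2 and 0. NEFL and NEFM count as neighbours of each other and share others, so their counts are not independent. In siHAND2 the 2 around each were DOCK5 and the other chain. AF106564.1, near both, was called lower in siMYCN (-0.41, limma adjusted p = 0.0432). Genes on the opposite strand overlap several members, and without a stated use of strand their reads cannot be told apart. AF106564.1 overlaps NEFM by 960 bases and had group means of 5.60, 4.09 and 5.29 CPM. AC125611.4 spans PRPH with 2.63, 3.88 and 2.75 CPM. The 2 genes that overlap VIM, VIM-AS1 and AL133415.1, had means of at most 1.07 CPM.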
